A study of Mus musculus with 4 samples.

Results

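The collagen gene family was described in sorted stromal cells of the mouse prostate. Its members were the protein-coding genes whose symbol reads Col, a number, a and a number. Each deposited transcript was assigned to a gene by its position, and the FPKM (a fragment level corrected for transcript length and sequencing depth) of its transcripts were summed. Of 25744 named genes, 44 were members, and all 44 had at least 1 listed transcript. By the structure of their products they comprised 11 fibrillar, 9 network-forming, 9 FACIT (fibril-associated with interrupted triple helices) and 15 other genes. The last group held the beaded-filament, anchoring-fibril, multiplexin, transmembrane and unclassified collagens.

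The samples were stromal cells from prostatic ducts of adult C57BL/6 mice. They were isolated by flow cytometry as Lin-CD24-CD49f-Sca-1+, that is without lineage markers, CD24 or CD49f on the surface and with Sca-1. The groups were proximal and distal ducts, with 2 libraries each, numbered 2 and 3 in both regions and called distal 2, distal 3, proximal 2 and proximal 3 here. All groups shared strain and sort gate, the labels name no treatment or allele, and the lineage antibodies and exact age are not given in them. The stated purpose of the sequencing was to find signals in this stroma. The labels do not say that the libraries are from different animals. The p-values therefore reflect the spread of these 4 libraries alone, and that spread could be technical.

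Collagens are trimers of chains that wind into a triple helix, and most are secreted into the extracellular matrix. Fibrillar collagens build the tension-bearing fibres of the stroma, FACIT collagens sit on the surface of such fibres, and type IV collagen forms the sheet-like network of basement membranes. In the prostate, stromal cells lay down the fibres around the ducts and contribute to the basement membrane on which the epithelium rests.

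In the fit of region alone, none of the 29 collagen genes tested passed the threshold between regions (0 called, limma, adjusted p = 0.99991 for each). Of all 11271 genes tested, 0% passed. A fit with a block for library number called 3 of the 29 and 4.12% of all genes. No label ties that number to an animal or day, and this fit is described in the last section. The abundant fibrillar chains Col1a1, Col1a2 and Col3a1 and the beaded-filament chains Col6a1 and Col6a2 had overlapping levels in the 2 regions. Among chains of the basement membrane the values were divided: Col4a5, Col4a6 and Col18a1 had both proximal libraries above both distal ones, and Col4a1, Col4a3 and Col4a4 had both below. Of all genes tested, 12.9% lay above and 8.64% below in this way. Col4a2 and Col15a1 overlapped, and under median ratio scaling Col4a6 and Col4a1 did so too. Col4a3 had the lowest log2 difference of the family, -1.72 ± 0.54 (SE, n = 2 libraries a region), and Col23a1 the highest, 1.91 ± 1.05. At an unadjusted p under 0.05, limma gave 1 collagen gene with higher proximal values, Col18a1, against a background of 2.25% of all genes, and 1 with higher distal values, Col4a3, against 0.905%. A permutation test of 2 against 2 libraries cannot give an exact two-sided p below 0.333.

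The gate was checked with marker genes. The 11 fibroblast markers summed to between 3936 and 5513 FPKM, and all 11 exceeded 1 FPKM. Most of that sum was Dcn (2353 to 3671 FPKM). The list includes Ly6a (687 to 1016 FPKM), the gene of the Sca-1 used for sorting, so its level is no independent check. The 11 epithelial markers summed to 41.9 (distal 2), 104 (distal 3), 62.7 (proximal 2) and 457 FPKM (proximal 3), and 2 of the 11 did not exceed 1 FPKM. The 9 smooth muscle markers summed to between 209 FPKM (proximal 3) and 407 FPKM (distal 2). The 7 pericyte markers summed to 53.6 and 58.1 FPKM in distal and 78.2 and 73.5 FPKM in proximal libraries. Most of the pericyte sum was Pdgfrb, at 33.9 and 36.6 FPKM in distal and 64.3 and 58.4 FPKM in proximal libraries. The pericyte marker Cspg4 had the opposite order, at 15.1 and 17.7 against 7.25 and 7.73 FPKM. The 9 endothelial markers summed to between 8.83 and 9.81 FPKM and the 8 leukocyte markers to between 2.25 and 6.73 FPKM. The 9 Schwann cell and neuron markers summed to between 1.81 and 4.88 FPKM. The 5 adipocyte markers summed to 0.22 and 2.29 FPKM in distal and to 4.99 and 15.1 FPKM in proximal libraries, nearly all of it Fabp4, with Adipoq, Plin1 and Lep at or near 0. The part of any other cell type in the results was not tested, and in RNA of many cells a smaller number of cells of a type and less RNA per cell cannot be told apart.

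The level of the family as a whole depended on a few chains. Collagen genes held 0.856% and 0.726% of all named FPKM in distal 2 and distal 3 and 1.03% and 0.636% in proximal 2 and proximal 3. The 5 most abundant genes, Col3a1, Col1a1, Col1a2, Col6a1 and Col6a2, held between 67% and 74.1% of the collagen FPKM of a library. Between 28 and 29 members reached 1 FPKM and between 22 and 24 reached 5 FPKM in each library. The deposited bounds of a collagen transcript lay, in the median, 8.63% to 10.5% either side of a value between 1 and 10 FPKM. For values between 10 and 100 FPKM this was 4.93% to 5.14%, and for those between 100 and 1000 FPKM 4.17% to 4.19%. These bounds cover estimation within a library only.

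**Figure D1:**
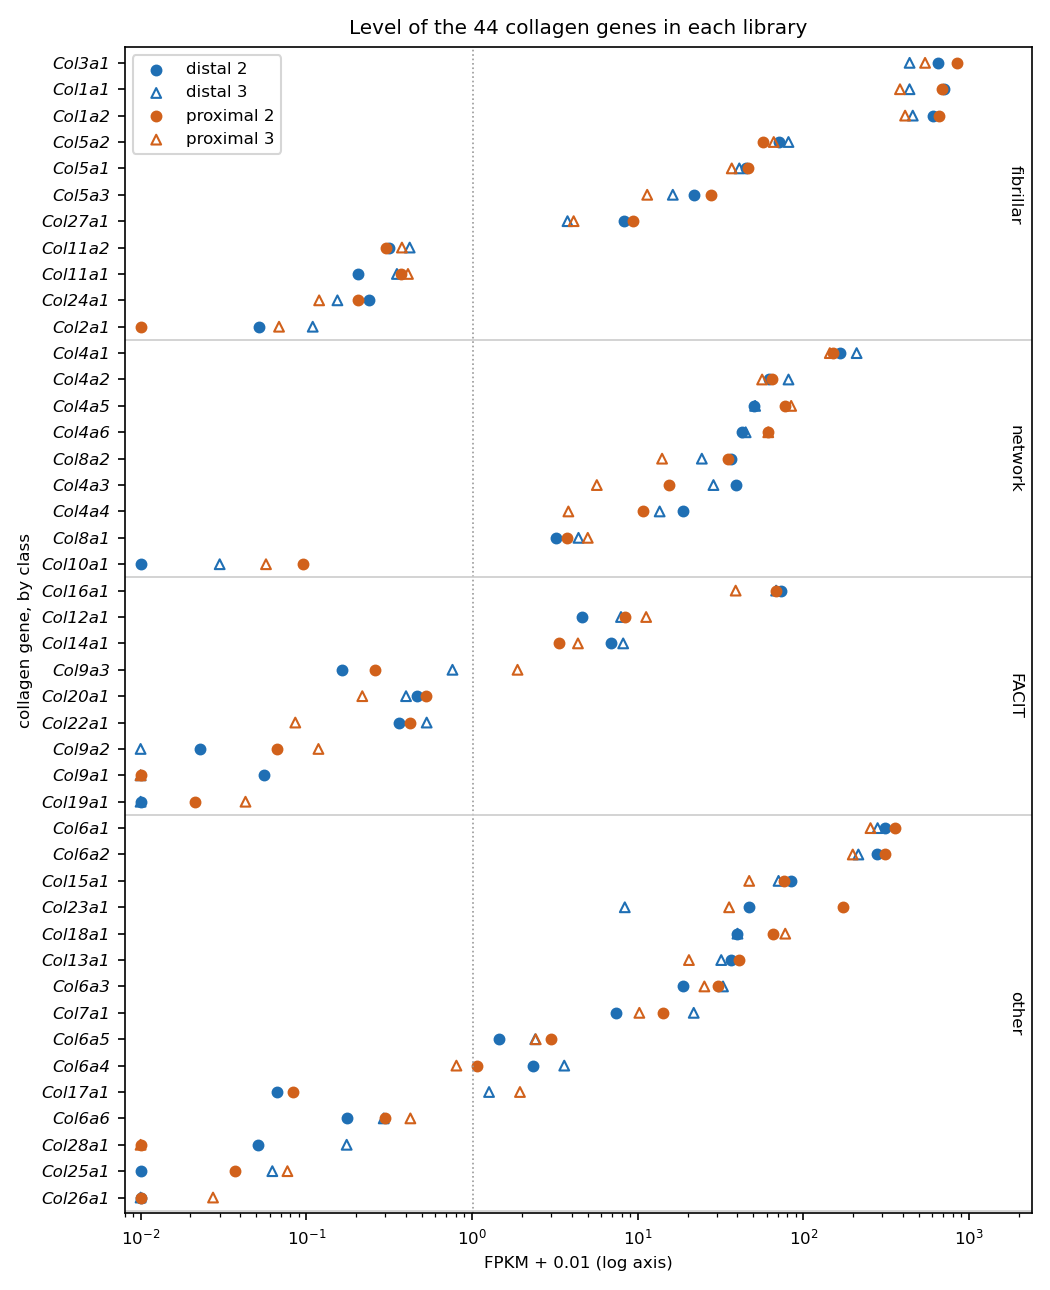
Level of each of the 44 collagen genes in each library, by class. The log axis shows FPKM + 0.01, so that genes listed at 0 appear at its left end; circles are libraries numbered 2, triangles libraries numbered 3, and the dotted line marks 1 FPKM. The fibrillar genes Col3a1, Col1a1 and Col1a2 lie furthest right, and the libraries of the 2 regions separate for Col4a5, Col4a6 and Col18a1 on 1 side and for Col4a3 and Col4a4 on the other.

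The 2 regions overlapped for most members. Of the 29 tested, 5 had both proximal values above both distal values (17.2%, against 12.9% of all genes tested) and 7 had both below (24.1%, against 8.64%). In either direction 41.4% of collagen genes did not overlap, against 21.6% of all genes. The 5 above were Col12a1, Col18a1, Col4a5, Col4a6 and Col6a5, and the 7 below were Col14a1, Col16a1, Col4a1, Col4a3, Col4a4, Col5a2 and Col6a4.

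These counts depended on how libraries were scaled; the scalings were planned, and their use on these counts was added after seeing the data. Quantile normalization gave 3 collagen genes above and 6 below (all genes 11.9% and 13.2%), median ratio scaling 2 and 12 (11.3% and 14.1%), and rescaling to TPM (FPKM brought to an equal total per library) 4 and 7 of 32 (14% and 8.55%). Col18a1 and Col4a5 above, and Col14a1, Col4a3, Col4a4 and Col6a4 below, appeared under all of these scalings.

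The median log2 difference (proximal minus distal) was -0.06 over the 29 collagen genes and 0.09 over all genes, of which 60.4% had a higher proximal value. The median over all genes shifted by -0.12 under quantile normalization and by -0.15 under median ratio scaling. Relative to the median of all genes, the difference was 1.82 for Col23a1, 0.73 for Col18a1, 0.56 for Col4a5, -1.27 for Col4a4 and -1.81 for Col4a3. Of the 29 collagen genes, 23 kept their sign under quantile, median ratio and TPM scaling.

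**Figure D2:**
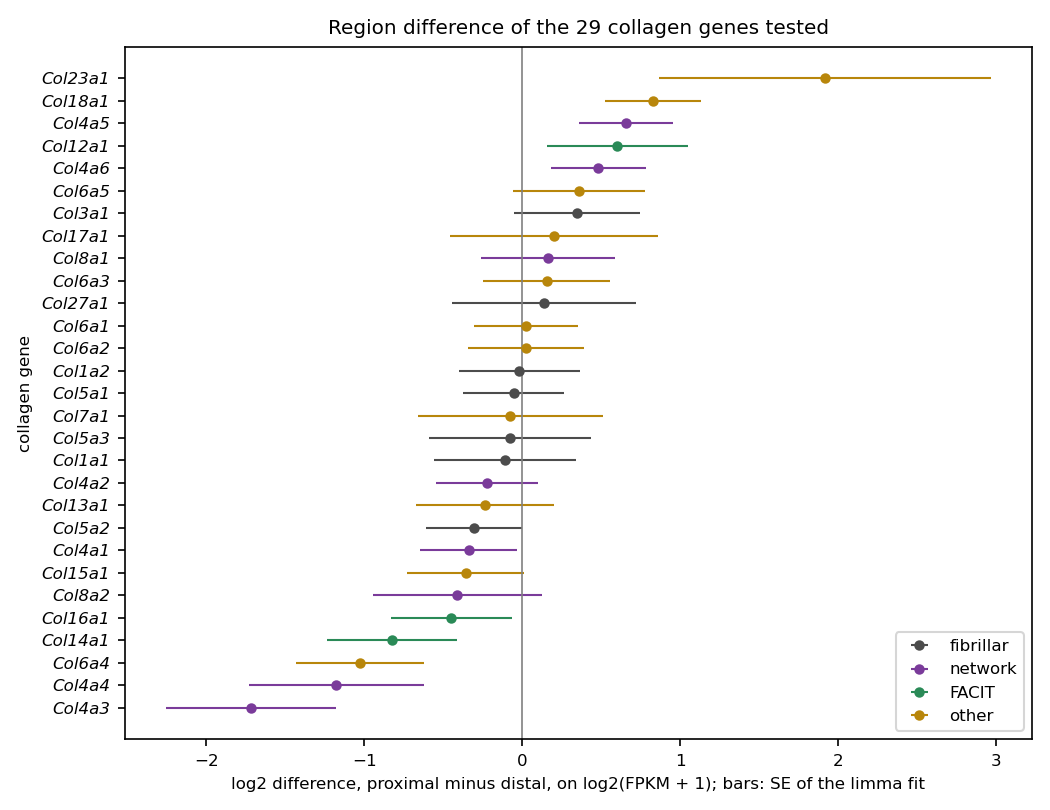
Log2 difference, proximal minus distal, of the 29 collagen genes tested, on the log2(FPKM + 1) scale. Points are limma estimates, bars their SE, and colours the 4 classes. Col23a1 lies at 1.91 with the widest bar and Col4a3 at -1.72, and most fibrillar genes lie near 0.

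Libraries with the same number were compared as well, since they could share a source that the labels do not give. Within both numbers, 10 collagen genes were higher in proximal (43% of all genes tested) and 10 were higher in distal (24%). On the log2(FPKM + 1) scale, 1 collagen gene was at least 2-fold higher in proximal within both numbers, Col23a1 (1.9% of all genes), and 1 in distal, Col4a3 (0.772%). For 12 collagen genes both libraries numbered 3 lay below both numbered 2 (50.4% of all genes), and for 2, Col8a1 and Col17a1, both lay above (20.2%). Of the 7 fibrillar genes tested, 6 were among those 12, with Col5a2 the exception.

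**Figure D3:**
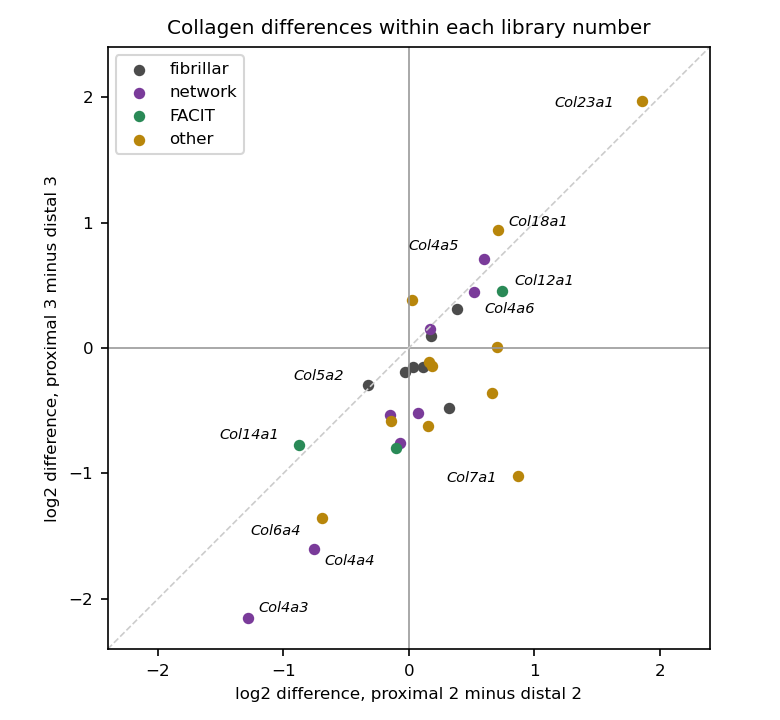
Difference of each tested collagen gene within the libraries numbered 2 (x axis) and within those numbered 3 (y axis), both as log2(FPKM + 1), proximal minus distal. Points on the dashed line have equal differences. Col23a1 lies at 1.86 and 1.97, Col4a3 at -1.28 and -2.16, and Col7a1 has opposite signs, at 0.87 and -1.02.

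Fibrillar collagens made up the largest share of collagen FPKM. Summed over the 11 genes, they reached 2104 (distal 2), 1477 (distal 3), 2332 (proximal 2) and 1457 FPKM (proximal 3), or 61.2%, 54.1%, 59.7% and 56.8% of the collagen total. Both libraries numbered 2 were high and both numbered 3 low, and the regions overlapped, with a log2 ratio of region means of 0.08. None of the 7 tested members was called, with a median log2 difference of -0.06.

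Col1a1 and Col1a2 encode the chains of type I collagen, the main fibre of most connective tissue. Col1a1 was measured at 704 (distal 2), 438 (distal 3), 690 (proximal 2) and 383 FPKM (proximal 3), a log2 difference of -0.11 ± 0.45 (SE). Col1a2 was measured at 605 and 458 FPKM in distal and at 656 and 411 FPKM in proximal libraries, a difference of -0.02 ± 0.39. For both genes the libraries numbered 2 were the high ones in each region, and the regions overlapped. Per length, the ratio of Col1a1 to Col1a2 was 1.16 and 0.956 in distal and 1.05 and 0.931 in proximal libraries.

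Col3a1, whose type III homotrimer forms fibres together with type I in distensible tissues, stood at 648 (distal 2), 438 (distal 3), 845 (proximal 2) and 543 FPKM (proximal 3). The difference was 0.35 ± 0.40 and the regions overlapped, although proximal exceeded distal 1.30-fold within number 2 and 1.24-fold within number 3. The ratio of Col3a1 to Col1a1, in which the level common to both cancels, was 0.921 and 1.001 in distal and 1.23 and 1.42 in proximal libraries. Both proximal ratios lay above both distal ratios. Of other chain ratios, those of Col4a1 to Col4a2, Col4a3 to Col4a4 and Col4a5 to Col4a6 did not overlap either. Those of Col1a1 to Col1a2, Col5a1 to Col5a2 and Col6a1 to Col6a2 overlapped. The share of such ratios over all gene pairs was not computed.

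Type V collagen sits inside type I fibres and limits their width. Col5a2 was measured at 71.7 (distal 2), 81.3 (distal 3), 57.1 (proximal 2) and 66.3 FPKM (proximal 3), with a difference of -0.31 ± 0.30 and no overlap. Col5a1 was measured at 44.9 and 41.1 FPKM in distal and at 46.1 and 37.0 FPKM in proximal libraries. Col5a3, a rarer chain of type V, was measured at 21.8 and 16.3 FPKM in distal and at 27.5 and 11.4 FPKM in proximal libraries. The last 2 genes overlapped between regions, at -0.06 ± 0.32 and -0.08 ± 0.51. The ratio of Col5a1 to Col5a2 was 0.626 and 0.505 in distal and 0.808 and 0.558 in proximal libraries and overlapped between regions, while Col5a1 is the more frequent chain in the usual type V trimer.

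Col27a1, a fibrillar collagen known best from cartilage, was measured at 8.21 and 3.76 FPKM in distal and at 9.40 and 4.10 FPKM in proximal libraries (0.14 ± 0.58). The regions overlapped, and the libraries numbered 2 were the high ones. Col2a1, Col11a1, Col11a2 and Col24a1, of which the first 3 are cartilage chains, were not tested and stayed at or below 0.411 FPKM in every library. The cartilage and bone markers Acan, Matn1 and Ibsp were at or near 0, and 7 of the 9 such markers did not exceed 1 FPKM. The marker sum of 17.2 to 33.1 FPKM came mostly from Sox9.

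**Figure D4:**
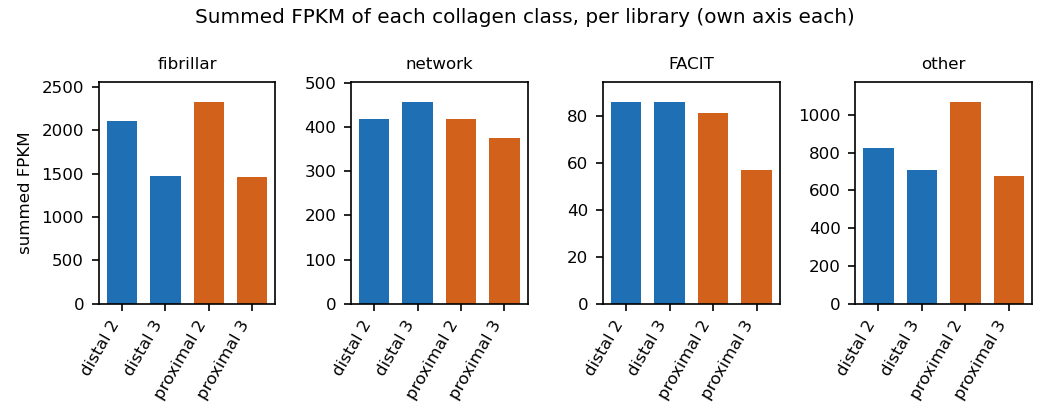
Summed FPKM of the 4 collagen classes in each library; each panel has its own axis from 0, and bars are single libraries, blue for distal and orange for proximal. In the fibrillar panel the bars of both libraries numbered 2 stand above those numbered 3, and in the FACIT panel proximal 3 is the lowest at 56.9 FPKM.

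Type IV collagen was the main network former, and 5 of its 6 genes had regions that did not overlap (2 above and 3 below, against 12.9% and 8.64% of all genes tested). Under median ratio scaling 3 of the 6 did not overlap, 1 above and 2 below (all genes 11.3% and 14.1%), and Col4a1 and Col4a6 were no longer among them. Its 6 genes lie as 3 head-to-head pairs, in which the 2 genes of a pair start close together and are read in opposite directions. Col4a1 and Col4a2 chains form the trimer found in all basement membranes, Col4a3, Col4a4 and Col4a5 chains that of the kidney glomerulus and a few other sites, and Col4a5 and Col4a6 chains that around smooth muscle and under some epithelia. In GENCODE M21 (mm10), the starts of Col4a4 and Col4a3 lie 72 bp apart on chromosome 1 (82586849 on the minus and 82586921 on the plus strand). Those of Col4a6 and Col4a5 lie 1309 bp apart on chromosome X (141474076 and 141475385), and the annotated starts of Col4a1 and Col4a2 lie 21 bp apart on chromosome 8 (11312826 and 11312805), where the 2 genes overlap.

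The bases before these starts are shown because the 2 genes of each of these 2 pairs had the same order of regions, and the pairs had opposite orders. They are RefSeq promoter windows (GRCm38.p6, 35 of the 44 members matched, 38 windows), kept only where no exon is annotated, read 5′ to 3′ on the strand of the gene named. Capitals mark matches on either strand to CCAAT (the CCAAT box), to GGGCGG (the GC box) or to TATAAA (the TATA box), which did not overlap each other. The 71 bases between Col4a4 and Col4a3 (chr1:82586850-82586920, minus strand) held no match. The stretch before Col4a5 (chrX:141475169-141475384, plus strand) and the stretch before Col4a6 (chrX:141474077-141474326, minus strand) held 1 match each. The Col4a5 stretch ends 34 bases before the RefSeq start. Those 34 bases, left out because an exon is annotated there, hold 1 GGGCGG match.
Col4a4/Col4a3: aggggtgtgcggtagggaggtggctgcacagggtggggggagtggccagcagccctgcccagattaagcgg
Col4a5: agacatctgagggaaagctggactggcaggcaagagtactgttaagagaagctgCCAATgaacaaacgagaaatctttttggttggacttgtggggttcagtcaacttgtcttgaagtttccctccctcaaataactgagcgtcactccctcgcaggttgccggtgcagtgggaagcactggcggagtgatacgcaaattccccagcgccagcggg
Col4a6: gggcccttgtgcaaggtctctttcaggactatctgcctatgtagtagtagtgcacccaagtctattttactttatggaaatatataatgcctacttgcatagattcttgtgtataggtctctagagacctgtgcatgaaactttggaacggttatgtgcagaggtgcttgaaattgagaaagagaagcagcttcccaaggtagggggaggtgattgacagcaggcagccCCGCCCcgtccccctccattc
Over whole windows of 250 bases before to 50 after a start, CCAAT was found in 13 of 35 collagen genes (37.4% of all 32851 windows), GGGCGG in 22 of 35 (35.7%) and TATAAA in 5 of 35 (13.6%), on either strand. The median GC content was 59.8% for the collagen windows and 52.7% for all windows. A match describes these letters only.

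Col4a1 and Col4a2 were the most abundant pair. Col4a1 was measured at 167 (distal 2), 210 (distal 3), 151 (proximal 2) and 144 FPKM (proximal 3) (-0.34 ± 0.31), with both proximal libraries below both distal ones. Col4a2 was measured at 61.6 and 81.4 FPKM in distal and at 64.9 and 56.4 FPKM in proximal libraries (-0.22 ± 0.32), and the regions overlapped. The ratio of Col4a1 to Col4a2 was 2.71 and 2.58 in distal and 2.32 and 2.56 in proximal libraries.

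Col4a3 and Col4a4 had higher values in distal stroma. Col4a3 was measured at 39.0 (distal 2), 28.7 (distal 3), 15.4 (proximal 2) and 5.66 FPKM (proximal 3). The region means were 33.8 ± 7.28 and 10.5 ± 6.89 FPKM (SD, n = 2 each), and distal exceeded proximal 2.53-fold within number 2 and 5.07-fold within number 3. Col4a4 was measured at 18.8 and 13.6 FPKM in distal and at 10.7 and 3.81 FPKM in proximal libraries (-1.18 ± 0.55), 1.75-fold and 3.56-fold higher in distal within numbers 2 and 3. For both genes all 4 libraries came in the same order, distal 2, distal 3, proximal 2 and proximal 3 from high to low. Proximal 3, the lowest, was also the library with the highest epithelial marker sum (457 FPKM); without it the differences were -1.07 for Col4a3 and -0.54 for Col4a4. All FPKM of each gene was listed under its longest transcript, and the ratio of Col4a3 to Col4a4 was 2.07 and 2.11 in distal and 1.44 and 1.49 in proximal libraries.

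Col4a5 and Col4a6 had higher values in proximal stroma. Col4a5 was measured at 50.7 (distal 2), 51.2 (distal 3), 77.3 (proximal 2) and 84.5 FPKM (proximal 3) (0.66 ± 0.30). Col4a6 was measured at 42.4 and 44.9 FPKM in distal and at 61.1 and 61.4 FPKM in proximal libraries (0.48 ± 0.30). Libraries of a region lay close together for both genes, and the regions did not overlap. Proximal 3, the highest for both, was also the library with the highest epithelial marker sum (457 FPKM). Without it the difference was 0.59 for Col4a5. The part of epithelial RNA in these values was not tested. Proximal exceeded distal 1.52-fold and 1.65-fold for Col4a5 and 1.44-fold and 1.37-fold for Col4a6, within numbers 2 and 3. The ratio of Col4a5 to Col4a6 was 1.20 and 1.14 in distal and 1.27 and 1.38 in proximal libraries.

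Ratios across the pairs do not depend on the scaling of a library. Col4a3 to Col4a5, partners in a trimer, was 0.768 and 0.560 in distal 2 and distal 3 and 0.199 and 0.0670 in proximal 2 and proximal 3. Col4a5 to Col4a1 was 0.304 and 0.244 in distal and 0.513 and 0.584 in proximal libraries. Neither ratio overlapped between regions. That follows from the opposite orders of the genes in each ratio, given above, and is no separate result.

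**Figure D5:**
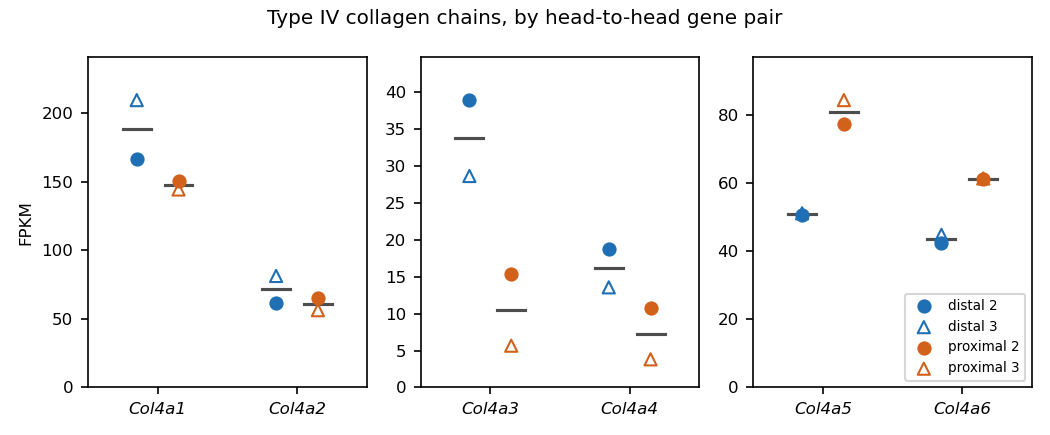
FPKM of the 6 type IV genes, 1 panel per head-to-head pair, each with its own axis from 0. Symbols are single libraries and horizontal lines the mean of a region's 2 libraries. Both proximal symbols lie below both distal symbols for Col4a1, Col4a3 and Col4a4 and above them for Col4a5 and Col4a6, and Col4a2 overlaps.

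Type VIII collagen forms short-chain networks in vessels and under endothelia. Col8a2 was measured at 36.8 and 24.4 FPKM in distal and at 35.1 and 14.0 FPKM in proximal libraries (-0.41 ± 0.53). Col8a1 was measured at 3.22 and 4.38 FPKM in distal and at 3.74 and 4.99 FPKM in proximal libraries (0.16 ± 0.42). Both overlapped between regions, and the ratio of Col8a2 to Col8a1 ranged from 2.81 in proximal 3 to 11.4 in distal 2. Col10a1, a marker of hypertrophic cartilage, was not tested and stayed below 0.1 FPKM. Over the network class, 8 of 9 genes were tested, 0 were called, 2 lay above (25%, all genes 12.9%) and 3 below (37.5%, all genes 8.64%) without overlap, and the median log2 difference was -0.28. Col4a6 and Col4a1 left these counts under median ratio scaling.

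The FACIT class was low apart from 1 gene. Col16a1, a FACIT collagen of fibroblasts and smooth muscle, was measured at 73.5 (distal 2), 68.5 (distal 3), 68.3 (proximal 2) and 39.0 FPKM (proximal 3) (-0.45 ± 0.38). The regions did not overlap, but proximal 2 lay just under distal 3 and only proximal 3 stood apart. Col14a1, which binds fibrils and decorin, was measured at 6.92 and 8.17 FPKM in distal and at 3.32 and 4.35 FPKM in proximal libraries (-0.83 ± 0.41). Distal exceeded proximal 2.08-fold and 1.88-fold within numbers 2 and 3. Col12a1, a large FACIT collagen of tendon and mechanically loaded stroma, had the opposite order, with 4.62 and 7.92 FPKM in distal and 8.41 and 11.2 FPKM in proximal libraries (0.60 ± 0.45). Proximal 2 lay just over distal 3.

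The other 6 FACIT genes were not tested. Col9a3, a cartilage chain, reached 0.155 and 0.753 FPKM in distal and 0.25 and 1.87 FPKM in proximal libraries, the highest value among all 15 untested members. Col9a1, Col9a2, Col19a1, Col20a1 and Col22a1 stayed below 1 FPKM. Summed, the FACIT class reached 86.1 and 86.3 FPKM in distal and 81.3 and 56.9 FPKM in proximal libraries, a log2 ratio of -0.32.

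Type VI collagen, the beaded microfibril around cells, had the highest summed level outside the fibrillar class, between 482 and 701 FPKM. Col6a1 was measured at 312 (distal 2), 281 (distal 3), 356 (proximal 2) and 254 FPKM (proximal 3) (0.02 ± 0.33). Col6a2 was measured at 278 and 215 FPKM in distal and at 311 and 199 FPKM in proximal libraries (0.02 ± 0.37). Col6a3 was measured at 18.9 and 32.7 FPKM in distal and at 30.6 and 25.3 FPKM in proximal libraries (0.15 ± 0.40). All 3 overlapped between regions. Col6a1 and Col6a2 stayed within a ratio of 1.12 to 1.31, while Col6a1 to Col6a3 ranged from 8.57 to 16.5, although the classical trimer holds these 3 chains in equal number.

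Col6a4, Col6a5 and Col6a6 encode chains that can take the place of Col6a3. Col6a4 was measured at 2.34 and 3.60 FPKM in distal and at 1.06 and 0.796 FPKM in proximal libraries (-1.03 ± 0.41), with both proximal values below both distal ones. Col6a5 was measured at 1.45 and 2.4 FPKM in distal and at 3.0 and 2.42 FPKM in proximal libraries (0.36 ± 0.42), where proximal 3 lay just over distal 3. Col6a6 was not tested and stayed below 0.5 FPKM.

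The multiplexins Col15a1 and Col18a1 encode the core proteins of basement membrane proteoglycans, and the end of the Col18a1 product is known as endostatin. Col18a1 was measured at 39.5 (distal 2), 40.0 (distal 3), 65.5 (proximal 2) and 77.8 FPKM (proximal 3) (0.83 ± 0.31). The libraries of a region lay close together and the regions did not overlap, with proximal 1.66-fold and 1.94-fold higher within numbers 2 and 3. The highest value was that of proximal 3, which also had the highest epithelial marker sum (457 FPKM). Without that library the difference was 0.71, and the part of epithelial RNA was not tested. Col15a1 was measured at 84.0 and 70.8 FPKM in distal and at 76.0 and 47.1 FPKM in proximal libraries (-0.36 ± 0.37), and the regions overlapped.

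2 starts of Col18a1 are annotated on chromosome 10 (minus strand), and the deposited estimates divided its FPKM between transcripts from them. The transcript from the far start (77166530) held 78.0% and 82.0% in distal 2 and distal 3 and 85.8% and 100% in proximal 2 and proximal 3. The remaining share, from the near start (77113705), was 21.97% and 18.04% in distal and 14.2% and 0% in proximal libraries. The share of the far start was higher in both proximal libraries than in both distal ones. The bases before the far start (chr10:77166549-77166780, minus strand, RefSeq, ending 18 bases before it) hold 1 CCAAT and 3 GGGCGG matches, in capitals, on either strand.
Col18a1, far start: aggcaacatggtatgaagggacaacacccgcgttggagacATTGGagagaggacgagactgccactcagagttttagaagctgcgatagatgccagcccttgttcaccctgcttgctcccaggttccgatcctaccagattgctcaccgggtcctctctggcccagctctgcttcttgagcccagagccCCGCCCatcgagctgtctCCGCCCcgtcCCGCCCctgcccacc
Cufflinks divides fragments between overlapping transcripts, so a share of 0% is an estimate and not a count.

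Transmembrane collagens are made as membrane proteins whose ectodomain can be shed. Col23a1 was measured at 46.9 (distal 2), 8.36 (distal 3), 173 (proximal 2) and 35.6 FPKM (proximal 3). Proximal exceeded distal 3.68-fold within number 2 and 4.26-fold within number 3, but distal 2 lay above proximal 3, so the regions overlapped. The difference was 1.91 ± 1.05 (SE). It was 0.74 without distal 3, 0.79 without proximal 2, 3.04 without proximal 3 and 3.09 without distal 2. Each of these fits has a lone library in 1 region, so only the effect size is given. Col23a1 was lower in number 3 than in number 2, with ratios of 0.178 in distal and 0.206 in proximal libraries. Dropping a library therefore also changes the balance of the numbers between the regions. All FPKM of Col23a1 was listed under a transcript of 5665 nucleotides in the libraries numbered 2 and under another of 5657 nucleotides with the same ends in those numbered 3. The promoter stretch before the common start is shown because Col23a1 had the highest log2 difference of the 29 genes (chr11:51289670-51289919, plus strand, RefSeq; capitals mark 1 GGGCGG match on the reverse strand).
Col23a1: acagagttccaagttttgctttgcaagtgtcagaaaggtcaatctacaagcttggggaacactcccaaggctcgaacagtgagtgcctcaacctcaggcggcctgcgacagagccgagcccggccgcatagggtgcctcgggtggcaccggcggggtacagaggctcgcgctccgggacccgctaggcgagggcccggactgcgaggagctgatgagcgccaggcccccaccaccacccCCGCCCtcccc
Col13a1, a transmembrane collagen of cell-matrix contacts, was measured at 36.6 and 31.9 FPKM in distal and at 40.8 and 20.4 FPKM in proximal libraries (-0.24 ± 0.43). A shorter Col13a1 transcript held 14.7% and 15.4% of its FPKM in the distal libraries and 0% in both proximal ones. Col17a1, a hemidesmosome protein of basal epithelium, was measured at 0.0565 and 1.26 FPKM in distal and at 0.0737 and 1.94 FPKM in proximal libraries, with both libraries numbered 3 high; the basal epithelial marker Krt14 was also high there, at 18.4 and 26.8 FPKM against 3.83 and 2.85 FPKM in distal 2 and proximal 2. The part of epithelial RNA in the Col17a1 value was not tested. Col25a1 stayed below 0.1 FPKM and was not tested.

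Col7a1 encodes the anchoring fibril that ties epithelial basement membrane to the stroma. It was measured at 7.39 (distal 2), 21.8 (distal 3), 14.3 (proximal 2) and 10.2 FPKM (proximal 3). Proximal was 1.94-fold higher within number 2 and distal 2.13-fold higher within number 3, so the direction differed between the numbers. The unclassified Col26a1 and Col28a1 stayed below 0.2 FPKM and were not tested. Over the 15 genes outside the fibrillar, network and FACIT classes, 11 were tested, 0 were called, and the median log2 difference was 0.02.

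Some other deposited estimates differed by library within a gene. Col4a5 had 73.1%, 68.1%, 68.8% and 73.1% of its FPKM in its longest transcript in distal 2, distal 3, proximal 2 and proximal 3. The rest lay in a transcript from a later start in the first 3 and in a shorter transcript from the same start in proximal 3 alone. The long Col6a3 transcript held 10.6% and 9.45% in distal and 17.0% and 10.7% in proximal libraries.

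Genes that make, bind or cut collagen were examined as 7 lists, and 0 members of any list were called. Counts of members above or below are those with no overlap between regions, which held for 12.9% (above) and 8.64% (below) of all genes tested. Of the hydroxylases and glycosyltransferases that modify procollagen chains and their partner proteins, 13 of 15 were tested. Of these 2 lay above (15.4%) and 2 below (15.4%), and the median log2 difference was -0.03. The 3 largest differences were those of Plod1, a lysyl hydroxylase (77.5 and 78.9 FPKM in distal, 72.1 and 43.8 in proximal, -0.47 ± 0.37), of P3h4, a partner of lysyl hydroxylation (20.6 and 15.9 against 30.3 and 21.3 FPKM, 0.46 ± 0.37), and of Colgalt2, a collagen galactosyltransferase (1.52 and 0.784 against 1.67 and 1.90 FPKM, 0.39 ± 0.40). Of the folding and secretion genes, 13 of 14 were tested, 1 lay above (7.69%) and 2 below (15.4%), and the median was -0.07. Fkbp7, a prolyl isomerase of the endoplasmic reticulum, had 74.5 and 58.9 FPKM in distal and 102 and 98.8 FPKM in proximal libraries (0.59 ± 0.31). Creb3l1, a transcription factor of the secretory pathway, had 42.3 and 53.0 against 36.6 and 37.3 FPKM (-0.35 ± 0.32), and Mia2, a cargo receptor, 37.9 and 25.4 against 26.2 and 22.7 FPKM (-0.34 ± 0.36). The transcripts assigned to Mia3 by position were listed at 0 in every library, and whether others of it stayed unnamed was not tested.

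Enzymes that trim procollagen and their enhancers comprised 8 genes, 6 of them tested, with 1 above and 1 below (16.7% each, all genes 12.9% and 8.64%) and a median of -0.31. Pcolce2, which enhances removal of the C-propeptide, had 11.2 and 9.14 FPKM in distal and 1.89 and 3.78 FPKM in proximal libraries (-1.58 ± 0.46), with no overlap. Pcolce, its relative, had 316 and 242 against 262 and 101 FPKM (-0.76 ± 0.53), and Adamts14, an N-propeptidase, 2.38 and 1.51 against 5.31 and 2.68 FPKM (0.73 ± 0.48). Of the 6 crosslinking genes all were tested, with 1 above and 1 below (16.7% each) and a median of 0.19. Loxl2, a lysyl oxidase known to act on type IV collagen, had 31.8 and 35.7 FPKM in distal and 17.0 and 12.1 FPKM in proximal libraries (-1.17 ± 0.36), with no overlap. Loxl1 had the opposite order, 30.0 and 14.997 against 36.7 and 31.3 FPKM (0.65 ± 0.44), and Lox, 43.8 and 78.8 against 50.6 and 119 FPKM (0.40 ± 0.54), overlapped.

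Of a list of 16 genes, 15 for proteins that bind or accompany fibrils and Ctsk for a collagen-degrading protease, 14 were tested. Of these 4 lay above (28.6%, all genes 12.9%), Ctsk among them, and 2 below (14.3%, all genes 8.64%), and the median was -0.05. Dermatopontin (Dpt), which binds decorin and collagen, had 64.4 and 99.9 FPKM in distal and 132 and 375 FPKM in proximal libraries (1.46 ± 0.58). Fibulin 1 (Fbln1) had 94.4 and 92.8 against 172 and 204 FPKM (0.99 ± 0.30), and fibronectin (Fn1) 13.8 and 28.2 against 6.43 and 12.4 FPKM (-1.06 ± 0.53). Dpt and Fbln1 lay above and Fn1 below in proximal libraries, with no overlap for these 3 genes.

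Of 10 collagen receptors, 7 were tested, 1 lay above (14.3%, all genes 12.9%), 2 below (28.6%, all genes 8.64%), and the median was -0.10. The discoidin receptor Ddr1 had 13.8 and 7.78 FPKM in distal and 15.7 and 16.5 FPKM in proximal libraries (0.59 ± 0.42), the integrin subunit Itgb1 188 and 237 against 175 and 169 FPKM (-0.30 ± 0.31), and the uptake receptor Mrc2 18.6 and 21.2 against 21.7 and 13.0 FPKM (-0.22 ± 0.40). Of 9 collagenases and inhibitors, 5 were tested, 1 lay above and 1 below (20% each, all genes 12.9% and 8.64%), and the median was -0.34. The inhibitor Timp1 had 63.1 and 91.1 against 17.9 and 67.9 FPKM (-1.09 ± 0.67), Timp3 146 and 185 against 243 and 289 FPKM (0.69 ± 0.32), and the membrane collagenase Mmp14 243 and 202 against 171 and 127 FPKM (-0.59 ± 0.33).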

How the data were processed

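RNA of 4 samples of sorted mouse prostate stroma, 2 proximal and 2 distal, was made into cDNA with the SMART-Seq v4 kit (random and oligo-dT priming) and sequenced on an Illumina HiSeq, per the labels' protocols. The genome build mm10 and the tools TopHat2 (0.6), Cufflinks (0.0.6) and bcl2fastq (1.8.3) stand in the submitters' processing notes, with no order or settings. Per the file headers, each deposited table lists transcripts with FPKM, its bounds, a coverage signal and a status. FPKM is scaled by length and mapped fragments and holds no counts, so no count model was used, and total fragments are not given. The authors' deposited coverage signal per FPKM had medians of 5.22 to 6.34.

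Of 63241 transcripts, 55609 (87.9%) received a gene name from their position in GENCODE M21. The rule was span overlap times length similarity of at least 0.8, or else both ends within 100 bp of exons of 1 gene. Failing both, a span overlap of at least 0.5 sufficed if that of any rival gene was below 0.25. FPKM was summed per gene, genes with a failed or capped estimate were left out (0 collagen genes), and genes with at least 1 FPKM in 2 or more libraries were tested. Values were tested as log2(FPKM + 1), which understates the change of low genes, with limma 3.58.1 in R 4.3.3 (region only, mean trend, two-sided, Benjamini-Hochberg over 11271 genes, threshold 0.05). The fit was also run on simulated data whose 4 libraries were drawn independently. That setting does not cover the shared deviations of same-numbered libraries described below. Naming, motif searches and plots used Python 3.11.15, pandas 2.3.3, numpy 2.4.6 and matplotlib 3.10.9. The members and gene lists were chosen with earlier results of these data known. Every collagen gene is accounted for, with values in every library for those with a region mean of at least 5 FPKM and for others singled out after their values were seen; of each other list, called genes or the 3 with the largest difference are named. The alternatives were other pseudocounts, filters, scalings, naming rules, a fit without the mean trend, a block for library number and leaving out each library.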

Additional observations from a re-analysis of the deposited data

How the results depend on the processing

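Under other pseudocounts, filters, scalings and naming rules and without the mean trend, 0 of the collagen genes tested there were called. These were 11 with naming by any exon overlap, 27 with stricter naming, 25 with a filter of 5 FPKM and 29 to 44 otherwise. With the library number as a replicate block, limma called 464 genes (313 higher in proximal, 151 in distal, 4.12% of those tested), among them 3 of 29 collagen genes: 1 higher in proximal, Col23a1 (adjusted p = 0.0029), and 2 higher in distal, Col4a3 (0.0138) and Col4a4 (0.0474), and 5 genes of the other lists. The labels tie no animal or day to a library number. The deviations of same-numbered libraries from their region means correlated at 0.815 across genes, which are not independent replicates, and with 2 pairs this shows no pairing by design.

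Leaving out 1 library assumes that the lone library of a region varies like the others. No conclusion is drawn from calls made that way. These fits called 25 to 54 genes, or 0.225% to 0.493% of those tested. Of the 28 to 29 collagen genes tested, 0 to 1 were called higher in proximal (0% to 3.57%). Of the other lists, 0 to 1 genes were called. The median collagen difference ranged from -0.30 to 0.26 and the log2 ratio of summed FPKM from -0.30 to 0.38 for the fibrillar and from -0.19 to 0.48 for the other class. The ranges crossed 0 for Col1a1 (-0.53 to 0.31), Col1a2 (-0.35 to 0.32), Col5a1 (-0.21 to 0.10), Col5a3 (-0.68 to 0.52), Col6a1 (-0.22 to 0.26), Col6a2 (-0.30 to 0.34), Col6a3 (-0.23 to 0.54), Col7a1 (-0.80 to 0.64), Col8a1 (-0.0147 to 0.34), Col8a2 (-1.04 to 0.22), Col13a1 (-0.72 to 0.25), Col17a1 (-0.35 to 0.93) and Col27a1 (-0.38 to 0.65).

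The fibrillar log2 ratio was -0.11 under median ratio scaling and -0.0875 with naming by any exon overlap, where the network ratio was -0.48 and fewer collagen genes were named. Signs also turned for Col1a2 (0.0133), Col27a1 (-0.0139) and Col8a1 (-0.0132) under quantile normalization. Under median ratio scaling they turned for Col6a1 (-0.15), Col6a2 (-0.15), Col6a3 (-0.0166) and Col27a1 (-0.0123). The cause of these turns was not tested. With stricter naming Col6a2 turned to -2.396, the value that its minor transcript alone gives. That transcript was listed at 24.2 and 23.3 FPKM in distal and at 0 and 21.0 FPKM in proximal libraries. The main Col6a2 transcript, at 254 and 192 FPKM in distal and 311 and 178 FPKM in proximal libraries, was not counted there. Of 438 gene values under alternatives, 403 kept sign and side of the threshold. Total fragments are unknown, so depth sets no stated limit for low genes.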
